A study of Mus musculus with 19 samples.

Results

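The complement system was examined through 9 genes in CD11b+ brain cells of mice with and without DJ-1, the product of *Park7*. The genes encode the 3 chains of C1q (*C1qa*, *C1qb* and *C1qc*), the components *C3* and *Cfb*, the anaphylatoxin receptors *C3ar1* and *C5ar1*, and the integrin chains *Itgam* and *Itgb2*. They were taken by symbol, each matched to 1 Ensembl gene, and are 9 of the 56980 genes of the count table. All 9 passed the filter on low counts, which left 18739 genes.

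Complement is a cascade of plasma and tissue proteins that tags particles, debris and synapses for uptake. C1q, assembled from chains A, B and C, starts the classical pathway, C3 is the component on which all pathways converge, and factor B (*Cfb*) forms the convertase of the alternative pathway that amplifies C3 cleavage. The released peptides act on C3aR (*C3ar1*) and C5aR1 (*C5ar1*), while C3 fragments left on surfaces are bound by complement receptor 3, the pair of CD11b (*Itgam*) and CD18 (*Itgb2*). In the brain, microglia are the main source of C1q and carry complement receptor 3.

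The libraries came from 19 male mice of 3 to 4 months. KO mice carried a constitutive gene-trap allele of *Park7*, and were compared with wildtype littermates. Mice received an intraperitoneal injection of LPS from *E. coli* O55:B5 (4 μg/g body weight) or of saline (PBS, called baseline here), and the brains were taken after perfusion at 6 h. There were 5 KO and 5 wildtype mice after LPS, and 5 KO and 4 wildtype mice at baseline. Cells were isolated with magnetic beads against CD11b, the protein that *Itgam* encodes, so its mRNA level is not independent of how the cells were chosen. Each library is a bulk measurement of 1 brain, in which fewer cells of a type and less RNA per cell cannot be told apart.

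Total counts per library ranged from 11936364 to 22788884. Levels are given as CPM, the counts scaled to a common library total after TMM normalization, and 3 counts corresponded to 0.139 to 0.256 CPM. *Park7* counts were 262 to 533 in wildtype and 9 to 90 in KO libraries, which matched the labels in all 19. Summed microglia markers (9 genes, among them *P2ry12* and *Tmem119*) lay at 19313 to 31759 CPM at baseline and at 6656 to 11318 CPM after LPS. Markers of choroid plexus (222 to 15412 CPM) and oligodendrocytes (520 to 11269 CPM) varied widely between libraries of the same group.

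All coordinates are on GRCm39. The C1q genes lie side by side on chromosome 4, all on the minus strand, *C1qb* at 136606009 to 136613511, *C1qc* at 136616466 to 136620376 and *C1qa* at 136623223 to 136626161. *C3* (57510964 to 57535155) and *Cfb* (35074852 to 35081559) lie on chromosome 17, both on the minus strand. *C3ar1* is on chromosome 6 (122823393 to 122833122, minus strand) and *C5ar1* on chromosome 7 (15980668 to 15993465, minus strand). *Itgam* is also on chromosome 7 (127661808 to 127717753, plus strand) and *Itgb2* on chromosome 10 (77366086 to 77401542, plus strand). Of the exon bases of *Cfb*, 65.7% are also annotated to the read-through gene *Gm20547*, which had 0 counts in every library, and 1704 of its 3420 exon bases lie opposite exons of *Nelfe*. Of those of *Itgam*, 67.4% are shared with *Gm49368*, which had 0 to 13 counts. How reads in such shared exons were assigned is not given in the sources used here, so the levels of *Cfb* and *Itgam* are uncertain. The other 7 genes share no exon base with another gene of the count table. Annotated genes absent from the count table were not checked, among them *Gm69251*, which overlaps *C1qb* and *C1qc*, and *Gm65552*, which overlaps *C3*.

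The 250 bases before the annotated start are shown for the pair of components that changed most after LPS, *Cfb* and *C3*, and for the neighbouring C1q genes whose levels parted, *C1qb* and *C1qc*. The sequences are from GRCm39, with starts of the Ensembl canonical transcripts, written 5′ to 3′ on the gene's strand, with motif matches in capitals.
*Cfb*, chr17:35081560-35081809, minus strand: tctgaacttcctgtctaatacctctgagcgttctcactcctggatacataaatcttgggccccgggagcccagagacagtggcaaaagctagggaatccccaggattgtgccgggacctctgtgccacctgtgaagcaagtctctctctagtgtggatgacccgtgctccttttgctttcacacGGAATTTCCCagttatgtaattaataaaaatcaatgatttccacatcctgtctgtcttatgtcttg
*C3*, chr17:57535156-57535405, minus strand: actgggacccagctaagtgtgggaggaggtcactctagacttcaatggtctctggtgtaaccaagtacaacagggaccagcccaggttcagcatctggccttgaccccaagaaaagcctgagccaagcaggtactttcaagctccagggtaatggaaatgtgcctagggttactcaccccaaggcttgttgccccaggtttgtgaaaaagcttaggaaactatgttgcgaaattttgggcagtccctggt
*C1qb*, chr4:136613512-136613761, minus strand: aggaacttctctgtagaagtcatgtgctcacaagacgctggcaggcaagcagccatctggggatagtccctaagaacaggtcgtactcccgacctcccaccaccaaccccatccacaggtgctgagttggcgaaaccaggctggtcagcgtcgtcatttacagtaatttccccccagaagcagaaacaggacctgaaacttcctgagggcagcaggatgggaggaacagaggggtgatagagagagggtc
*C1qc*, chr4:136620377-136620626, minus strand: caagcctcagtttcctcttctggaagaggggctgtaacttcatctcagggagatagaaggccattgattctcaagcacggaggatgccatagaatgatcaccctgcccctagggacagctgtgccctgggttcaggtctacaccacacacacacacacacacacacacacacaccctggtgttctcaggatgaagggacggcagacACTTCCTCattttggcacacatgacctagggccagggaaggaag

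In these windows both strands were searched for 5 motifs, GGGA and TTCC with any 2 bases between them (kappaB), GAAA and GAAA with any 2 bases between them (interferon-stimulated response element), TTGCNNCAA (C/EBP), GAGGAAGT (PU.1) and TGANTCA (AP-1). The *Cfb* window held GGAATTTCCC, the kappaB letters on the reverse strand, 66 bases before the start. Such a match was present in 1.21% of 18615 promoter windows of the same length. The *C1qc* window held ACTTCCTC, the PU.1 letters on the reverse strand, 44 bases before the start, as did 2.27% of all windows on either strand. *C3ar1* held TGACTCA 16 bases before its start, and 5.06% of all windows had an AP-1 match. The windows of *C1qa*, *C1qb*, *C3*, *C5ar1*, *Itgam* and *Itgb2* held none of the 5. The response element letters occurred in 3.3% and the C/EBP letters in 1.7% of all windows. A match describes the letters only, and binding was not measured.

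**Figure D1:**
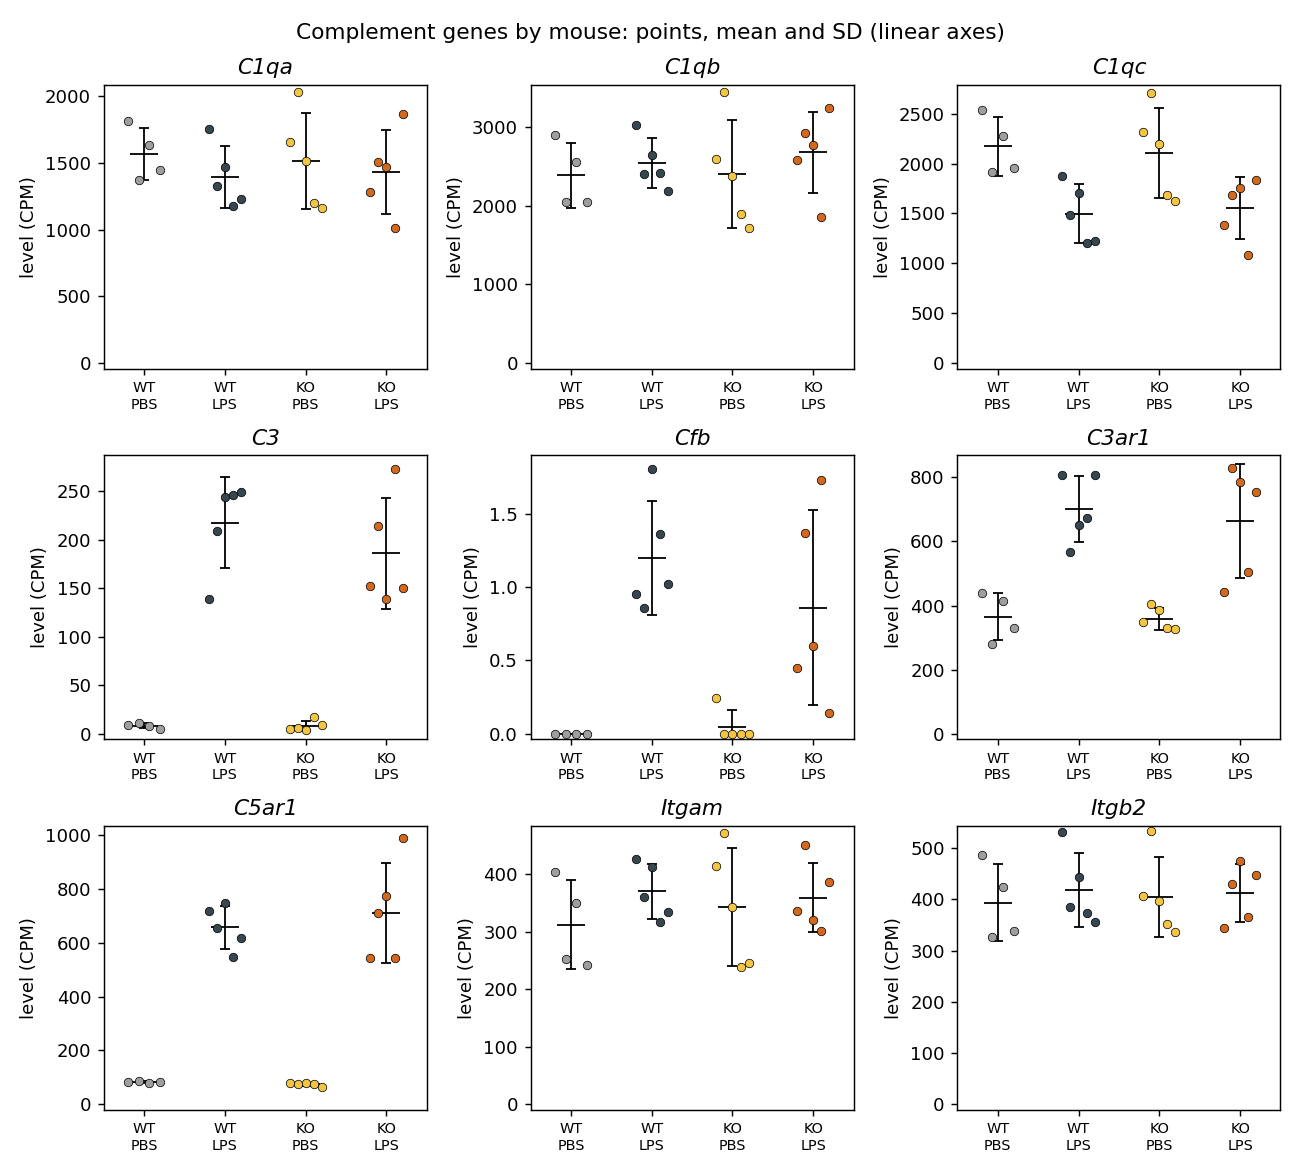
Level of each of the 9 complement genes in every library, in CPM on linear axes, by group, 1 point per mouse with the group mean and SD. *C3*, *C3ar1* and *C5ar1* lie higher after LPS in every mouse of both genotypes, *Cfb* in all but 1 KO mouse, while wildtype and KO points overlap in every panel.

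The first question was how the genes responded to LPS. In wildtype mice *C3*, *Cfb*, *C3ar1* and *C5ar1* rose and *C1qc* fell, and in KO mice the same 4 genes rose. *C1qa*, *C1qb*, *Itgam* and *Itgb2* passed in neither genotype. To pass, a gene needed an adjusted p below 0.05 together with a log2FC of 0.5 or more in size. Thus 5 of 9 genes passed in wildtype mice, where 35.9% of all genes tested did (18.4% higher, 17.4% lower), and 4 of 9 in KO mice, where 39.1% did (20.1% higher, 19% lower). The median log2FC of the 9 genes was 0.25 in wildtype and 0.16 in KO mice, against −0.06 and −0.01 for all genes. Read against these background shares, the counts say little about the 9 genes as a set.

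*C3* was low at baseline. Its level there was 8.50, 11.0, 8.21 and 5.22 CPM in the wildtype mice (84 to 182 counts) and 5.09, 5.50, 3.45, 17.5 and 8.54 CPM in the KO mice (68 to 334 counts). After LPS it was 139, 209.6, 245, 246 and 249.8 CPM in wildtype mice (2331 to 4061 counts) and 152, 214, 139, 274 and 150.4 CPM in KO mice (2083 to 4890 counts). Every LPS library lay above every baseline library, and the highest baseline value, in KO replicate 4, was still far below the lowest after LPS. The log2FC was 4.72 ± 0.42 (SE, adjusted p = 5.66e-08) in wildtype and 4.53 ± 0.38 (adjusted p = 1.74e-08) in KO mice (edgeR quasi-likelihood test, Benjamini-Hochberg adjusted). Groups of the LPS comparison did not overlap for 37.8% of all genes in wildtype and for 32.8% in KO mice.

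*Cfb*, the partner of C3 in the alternative pathway convertase, had 0 counts in all 4 wildtype baseline libraries, and had 4, 0, 0, 0 and 0 counts in the KO baseline libraries. After LPS it had 16, 13, 30, 21 and 12 counts in wildtype (0.855 to 1.81 CPM) and 8, 24, 10, 31 and 2 counts in KO mice (0.144 to 1.73 CPM). In wildtype mice no LPS library came down to the baseline level, whereas the KO replicate with 2 counts lay below the baseline library with 4. Summed over libraries, wildtype *Cfb* had 92 counts after LPS against 0 at baseline. Scaled to depth, the exact Poisson interval of its ratio began at 21.6-fold, which covers counting error only and leaves out the spread between mice. Set against a limit of 3 counts over the baseline group, the ratio was 27.15. In KO mice it was 21.3-fold higher (75 against 4 counts, counting interval 7.99 to 80.3, which covers counting error only), and without the 1 baseline library that held counts its ratio to the same limit was 23.6. By edgeR's quasi-likelihood test the adjusted p was 0.000279 in wildtype and 0.0011 in KO mice. *Cfb* remained the lowest of the 9 genes per kilobase of exon after LPS, at 0.351 ± 0.114 CPM per kb in wildtype mice (SD, n = 5), against 42.0 ± 9.05 for *C3*.

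The anaphylatoxin receptors both rose, by different amounts. *C5ar1* was 83.7, 88.0, 79.6 and 83.5 CPM in wildtype and 79.2, 74.97, 79.9, 73.6 and 64.7 CPM in KO mice at baseline. After LPS it reached 717, 656, 749, 548 and 618 CPM in wildtype and 543, 711, 775, 543 and 988 CPM in KO mice. No LPS library overlapped the baseline libraries, which lay close together. The log2FC was 2.97 ± 0.17 (SE, adjusted p = 3.73e-10) in wildtype and 3.26 ± 0.15 (adjusted p = 3.19e-11) in KO mice by edgeR's quasi-likelihood test.

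*C3ar1* was already well expressed at baseline, with 438, 279, 413 and 331 CPM in wildtype and 349, 405, 386, 331 and 326 CPM in KO mice. After LPS it was 807, 568, 652, 672 and 807 CPM in wildtype and 441, 829.9, 787, 503 and 753 CPM in KO mice. All LPS libraries lay above those at baseline, but the lowest KO value came near them. The log2FC was 0.94 ± 0.19 (adjusted p = 0.000431) and 0.88 ± 0.17 (adjusted p = 0.000336) by edgeR's quasi-likelihood test. Counts of *C3ar1* were 3.17 to 5.40 times those of *C5ar1* in the baseline libraries and 0.762 to 1.31 times after LPS. This ratio does not depend on how libraries are scaled, and it did not overlap between conditions. Per kilobase of exon, *C5ar1* moved from below *C3ar1* (32.6 ± 1.34 against 72.9 ± 14.7 CPM per kb in wildtype mice at baseline, SD, n = 4) to above it (256 ± 31.0 against 139.9 ± 20.8 after LPS, n = 5).

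Myeloid cells from the blood also carry these receptors and CD11b, so markers of other cells are given beside them. Of 12 neutrophil and monocyte markers, 9 rose and 1 fell in wildtype mice after LPS, and 10 rose and 1 fell in KO mice. Their summed level was 436 to 629.6 CPM at baseline and 621 to 992 CPM after LPS in wildtype mice, and 418 to 604 and 398 to 964 CPM in KO mice. Most of the baseline sum was *Csf3r*, the marker that fell (means 466 of 549 CPM in wildtype and 446 of 525 CPM in KO mice). After LPS *Csf3r* averaged 300 CPM in wildtype and 305 CPM in KO mice, so the sums understate the rise of the markers that rose. None of the 12 was at 0 in a library, and the neutrophil marker *Ly6g* stayed at 3 to 30 counts throughout. Their part in the rise of *C5ar1*, *C3ar1*, *C3* and *Cfb* was not tested. All 9 microglia markers fell in both genotypes, *P2ry12* by 3.66 (log2FC) in wildtype and by 3.36 in KO mice.

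The C1q chains, by contrast, kept a high summed level. Together they made up 5327 to 7239 CPM in wildtype and 4493 to 8181 CPM in KO mice at baseline, and 4645 to 6655 and 3961 to 6943 CPM after LPS. The ranges overlapped in both genotypes, whereas the summed microglia markers lay below their baseline range in every LPS library. *C1qa* had a log2FC of −0.17 (95% interval −0.57 to 0.23) in wildtype and −0.08 (−0.46 to 0.29) in KO mice. *C1qb* had 0.09 (−0.33 to 0.52) and 0.16 (−0.24 to 0.56).

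*C1qc* alone of the chains moved past the thresholds. It was 2534, 1916, 2279 and 1954 CPM in wildtype mice at baseline and 1874, 1479, 1701, 1207 and 1224 CPM after LPS. The wildtype ranges did not overlap, but the gap between them was narrow. In KO mice it was 2315, 2706, 2200.5, 1685 and 1621 CPM at baseline and 1388, 1687, 1754, 1086 and 1837 CPM after LPS, and these ranges overlapped. The log2FC was −0.54 ± 0.19 (SE, adjusted p = 0.0306) in wildtype and −0.44 ± 0.18 (adjusted p = 0.0542) in KO mice by edgeR's quasi-likelihood test. Averaged over both genotypes, a comparison added after the data were seen, it was −0.49 ± 0.13 (adjusted p = 0.00375). The wildtype call rested on few mice. Without LPS replicate 2, 4 or 5, or without baseline replicate 1 or 3, its log2FC was −0.51 to −0.45 with an adjusted p of 0.0581 to 0.0942. In KO mice it passed the thresholds without LPS replicate 5 or without baseline replicate 4 or 5 (−0.51 in each case).

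The makeup of the C1q transcripts differed between conditions in every library. These shares are given as a description, with no test. As a share of the summed C1q counts, which no library scaling can alter, *C1qc* was 35.0, 36.0, 35.3 and 35.9% in wildtype and 35.3, 33.1, 36.2, 35.3 and 36.1% in KO mice at baseline. After LPS it was 28.2, 28.4, 29.3, 25.2 and 26.3% in wildtype and 26.4, 27.6, 29.3, 27.4 and 26.5% in KO mice. The LPS values were lower in all 10 libraries than in any of the 9 at baseline. *C1qb* took the opposite course, with 37.5 to 42.1% at baseline and 45.4 to 50.4% after LPS. *C1qa* stayed between 24.4 and 26.9% in all libraries. Mean shares of wildtype and KO mice lay within 1 SD of each other for *C1qc* at baseline (35.5 ± 0.470% and 35.2 ± 1.25%) and after LPS (27.5 ± 1.68% and 27.4 ± 1.16%).

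**Figure D2:**
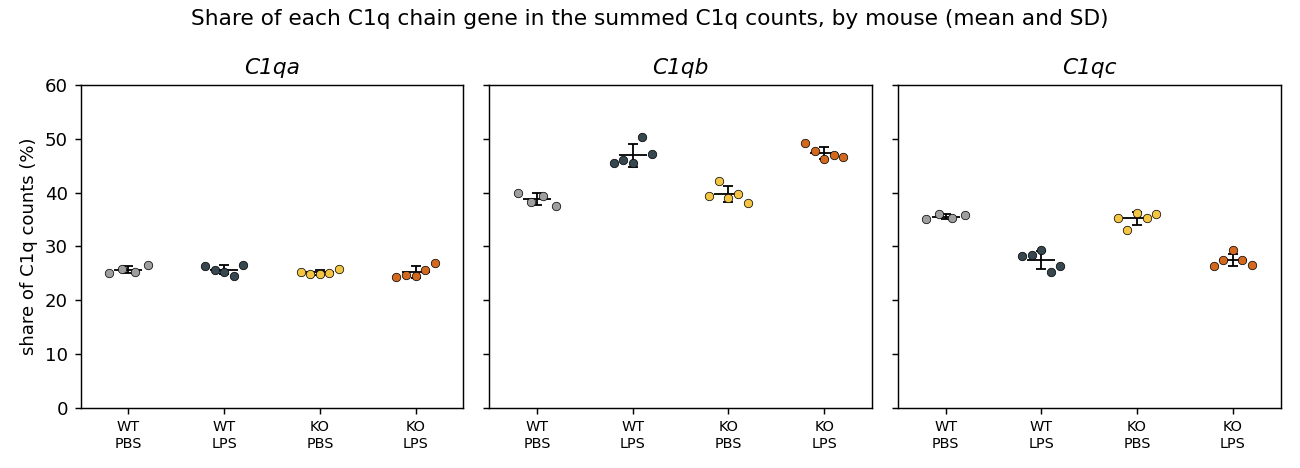
Share of *C1qa*, *C1qb* and *C1qc* in the summed counts of the 3 genes (%), 1 point per mouse, with mean and SD by group. *C1qb* points lie at 45.4% or more after LPS and at 42.1% or less at baseline, *C1qc* points the other way round, and *C1qa* points overlap.

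Which chain ranked highest depended on the length used to compare them. In wildtype mice at baseline, per kilobase of all annotated exons, *C1qa* was highest (973 ± 123 CPM per kb), then *C1qc* (759 ± 102) and *C1qb* (381 ± 66.8). Per kilobase of coding sequence the order was *C1qb* (3137 ± 550), *C1qc* (2941 ± 396) and *C1qa* (2131 ± 268), with the first pair within their SD (n = 4). *C1qb* has the longest annotated exons, 6246 bases of which 759 are coding.

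The chains of complement receptor 3 differed little between conditions. *Itgam* was 242 to 403 CPM in wildtype and 238 to 472 CPM in KO mice at baseline, and 316 to 426 and 301 to 451 CPM after LPS. *Itgb2* was 327 to 486, 336 to 533, 355 to 532 and 344 to 475 CPM in the same order. All these ranges overlapped. The log2FC of *Itgam* was 0.25 (95% interval −0.18 to 0.67) in wildtype and 0.07 (−0.33 to 0.47) in KO mice, and that of *Itgb2* 0.09 (−0.25 to 0.42) and 0.03 (−0.29 to 0.35). Changes up to the ends of these intervals cannot be told from none. *Itgam* counts were 0.675 to 1.05 times those of *Itgb2* over all libraries.

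**Figure D3:**
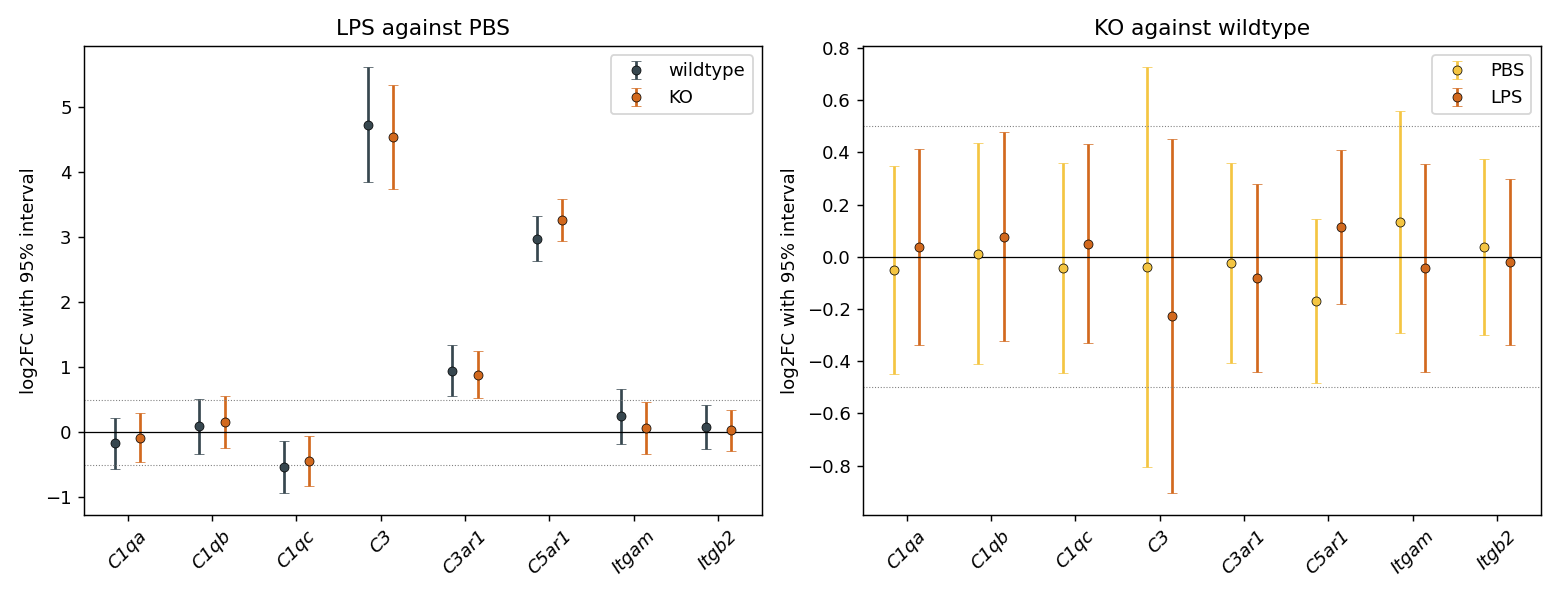
The log2FC with its 95% interval for 8 complement genes (*Cfb* is left out because it had 0 counts in all wildtype baseline libraries), for LPS against baseline in each genotype and for KO against wildtype in each condition. The LPS effects of *C3* (4.72 in wildtype) and *C5ar1* (2.97) are the largest, and the intervals of all genotype effects include 0.

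Per kilobase of exon, the order in wildtype mice at baseline ran from the C1q chains through *Itgb2* (121 ± 23.04 CPM per kb), *C3ar1* (72.9 ± 14.7), *Itgam* (61.0 ± 15.2) and *C5ar1* (32.6 ± 1.34) to *C3* (1.59 ± 0.459) and *Cfb* (0). *C3ar1* and *Itgam* lay within 1 SD of each other. After LPS *C5ar1* (256 ± 31.0) came next to the C1q chains, ahead of *C3ar1* (139.9 ± 20.8) and *Itgb2* (129 ± 22.1), which lay within 1 SD of each other, then *Itgam* (72.3 ± 9.34) and *C3* (42.0 ± 9.05). The order of the genes other than the C1q chains was the same in KO mice in both conditions. With coding lengths *C3ar1* ranked above *Itgb2* in both conditions, and with the length of the canonical transcript below it in both and below *Itgam* at baseline. With that length *C1qb* ranked above *C1qc* after LPS and below it at baseline.

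The second question was whether DJ-1 loss altered these genes. For KO against wildtype mice a gene passed at an unadjusted p below 0.05 together with a log2FC of 0.5 or more in size. None of the 9 genes passed after LPS, where 1.31% of all genes did, nor at baseline, where 0.8% did. By edgeR's quasi-likelihood test 0 of the 9 reached an unadjusted p below 0.05 in either condition (2.57% and 1.04% of all genes did), the lowest being 0.424 after LPS and 0.134 at baseline (*Cfb*), and DESeq2 also placed 0 of 9 past the thresholds. Ranges of KO and wildtype mice overlapped for all 9 genes in both conditions (for all genes tested, groups did not overlap in 0.219% after LPS and 0.971% at baseline).

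After LPS *C3* averaged 218 ± 46.9 CPM in wildtype and 186 ± 57.1 CPM in KO mice (SD, n = 5 each), a log2FC of −0.23 with a 95% interval of −0.91 to 0.45. *C5ar1* averaged 658 ± 79.6 and 712 ± 185 CPM (log2FC 0.11, −0.18 to 0.41), and *C3ar1* 701 ± 104 and 663 ± 178 CPM (−0.08, −0.44 to 0.28). *Cfb* averaged 1.20 ± 0.389 and 0.860 ± 0.666 CPM (−0.47, −1.80 to 0.87), the widest interval of the set. For the C1q chains the log2FC after LPS was between 0.04 and 0.08, and none of their intervals reached beyond −0.34 or 0.48. *Itgam* (−0.04, −0.44 to 0.36) and *Itgb2* (−0.02, −0.34 to 0.30) had intervals of similar width.

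At baseline *C1qa* (−0.05, −0.45 to 0.35), *C1qb* (0.01, −0.41 to 0.44) and *C1qc* (−0.04, −0.45 to 0.36) differed by less than the spread between mice. So did *C3* (−0.04, −0.81 to 0.73), *C3ar1* (−0.02, −0.41 to 0.36), *Itgam* (0.13, −0.29 to 0.56) and *Itgb2* (0.04, −0.30 to 0.38). *C5ar1* averaged 83.7 ± 3.45 CPM in wildtype and 74.5 ± 6.10 CPM in KO mice (SD, n = 4 and 5), a difference larger than either SD, but the ranges overlapped and the interval of its log2FC included 0 (−0.17, −0.48 to 0.14). Differences up to the ends of these intervals cannot be told from none. For *Cfb*, with 0 counts in wildtype and 4 in KO mice, no fold is given.

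The response to LPS was also compared between genotypes directly, as the interaction. An adjusted p below 0.05 was reached by 0 of the 9 genes and by 0% of all genes with edgeR's quasi-likelihood test, and by 0 genes with DESeq2. At an unadjusted p below 0.05 there were 180 genes (0.961%), with 0 of the 9 among them. *C5ar1* responded by 0.28 more on the log2 scale in KO than in wildtype mice (95% interval −0.15 to 0.71). *C3* responded by −0.19 (−1.21 to 0.84), *C3ar1* by −0.06 (−0.58 to 0.47) and *C1qc* by 0.09 (−0.46 to 0.65). The fall of *C1qc* past the thresholds in wildtype but not in KO mice was therefore not shown to differ between the genotypes.

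The rest of the pathway was covered by 46 further complement genes, of which 27 passed the filter. After LPS 5 rose and 4 fell in wildtype mice, and 7 rose and 4 fell in KO mice. Beside the 35.9% and 39.1% of all genes that passed, these counts say little about the pathway as a whole. The median log2FC of the 27 was 0.26 and 0.16. At 0 or a few counts were the mannose-binding lectins *Mbl1* and *Mbl2* and *C4bp* (0 counts in every library each) and factor D (*Cfd*, at most 2 counts), the protease that cleaves factor B. *Hc*, the gene of C5, had at most 10 counts.

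Of 15 genes that start the classical and lectin pathways 9 were tested. *C1ra*, the protease that C1q activates, rose by 2.57 ± 0.41 (log2FC, SE, adjusted p = 5.15e-05) in wildtype and 1.95 ± 0.37 (0.000244) in KO mice. Its counts were 36 to 55 and 38 to 66 at baseline, and 143 to 414 and 45 to 382 after LPS. The wildtype ranges did not overlap, and those of KO mice did, through LPS replicate 5. Reads of *C1ra*, *C1s1*, *Cd55* and *Cd59a* and *Cd59b* may have been split with near-identical copies, so their values are uncertain. Its partner *C1s1* had 1.35 (adjusted p = 0.0809) and 0.98 (0.157). *Masp1* (−1.84, adjusted p = 0.00078 and −1.86, 0.000448) and ficolin A (*Fcna*, −1.72, 0.0046 and −1.95, 0.00125), both of the lectin pathway, fell in both genotypes by edgeR's quasi-likelihood test.

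*C4b*, which encodes C4, a part of the classical and lectin C3 convertase, was 91.2 ± 1.69 CPM at baseline and 117 ± 19.6 CPM after LPS in wildtype mice, a log2FC of 0.36 (adjusted p = 0.0616). In KO mice its log2FC was 0.46 (adjusted p = 0.011), under the fold threshold. Its near-identical copy *C4a* had 10 to 55 counts, and passed the thresholds in KO mice (1.37, adjusted p = 0.00206) but not in wildtype mice (0.91, 0.0501). Reads of *C4a* and *C4b* may have been assigned to either copy. *C2*, which shares 38.4% of its exon bases with *Gm20547* and is uncertain for that reason, had 0.26 and 0.14. *Masp2* and *Fcnb* had 40 counts at most.

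Among 9 genes of the alternative pathway and the terminal components, only *Cfp* and *C8g* passed the filter. *Cfp* encodes properdin, which stabilises the convertase that factor B forms. It rose from 12.2 ± 2.87 to 31.3 ± 3.68 CPM in wildtype mice (log2FC 1.36 ± 0.18, adjusted p = 4.81e-06) and from 9.44 ± 1.49 to 25.9 ± 4.78 CPM in KO mice (1.45 ± 0.16, adjusted p = 7.34e-07). *C8g* had at most 18 counts and passed in neither genotype.

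Among the soluble regulators, *Serping1*, the C1 inhibitor, rose by 1.84 ± 0.57 (adjusted p = 0.0133) and 2.04 ± 0.53 (0.00377) from low counts (10 to 52 at baseline, 15 to 181 after LPS). *Cfhr2* passed in KO mice (1.86, adjusted p = 0.0195) on 42 counts at most, and without LPS replicate 2 it did not (1.52, 0.0663). In wildtype mice its log2FC was 0.54. *Clu* and *Vtn* varied from 310 to 8838 and from 29 to 2442 counts and passed in neither genotype. The lowest counts of both were in KO LPS replicate 5, which also had the lowest choroid plexus (222 CPM) and endothelial (74.1 CPM) marker sums, whose part in these values was not tested.

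None of the 5 membrane regulators tested passed the thresholds. *Cr1l*, the rodent regulator Crry, had 0.07 (95% interval −0.15 to 0.29) and 0.16 (−0.06 to 0.37), the narrowest intervals of the pathway. *Cd55*, decay-accelerating factor, had 0.92 (adjusted p = 0.0698) and 0.26, and *Cd46*, *Cd59a* and *Cd59b* had log2FC values between −0.84 and −0.16.

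Of the other receptors *C5ar2*, the second receptor of C5a, fell while *C5ar1* rose. It was 116 ± 10.9 CPM at baseline and 60.1 ± 29.0 CPM after LPS in wildtype mice (−0.95 ± 0.28, adjusted p = 0.00931), and 102 ± 12.4 and 63.3 ± 15.5 CPM in KO mice (−0.70 ± 0.26, adjusted p = 0.0378). The KO call was lost without LPS replicate 1, 3 or 4 or baseline replicate 1, 2 or 5 (−0.71 to −0.58, adjusted p 0.0566 to 0.1). Without the 4 libraries richest in oligodendrocyte markers it was lost too (−0.61, 0.126). *C1qbp*, a mitochondrial protein first named for binding C1q, rose by 1.45 ± 0.17 and 1.48 ± 0.16 (adjusted p = 1.87e-06 and 4.71e-07). *Cd93* had 0.48 and 0.19, and *Itgax*, the alpha chain of complement receptor 4, had 0.21 (−0.21 to 0.63) and 0.14 (−0.26 to 0.53).

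The partner chains of CD18 thus differed. *Itgal*, the alpha chain of LFA-1, was 136 to 200 and 92 to 263 counts in wildtype and KO mice at baseline, and 1256 to 3316 and 1164 to 2490 counts after LPS. Its log2FC was 3.81 ± 0.38 (adjusted p = 2.23e-07) in wildtype and 3.25 ± 0.34 (adjusted p = 2.72e-07) in KO mice by edgeR's quasi-likelihood test, with no overlap between conditions. *Itgad* had 9 to 36 counts and passed in neither genotype (0.04 and 0.20). LFA-1 is also a protein of circulating leukocytes, and the part of the neutrophil and monocyte markers above in the change of *Itgal* was not tested.

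**Figure D4:**
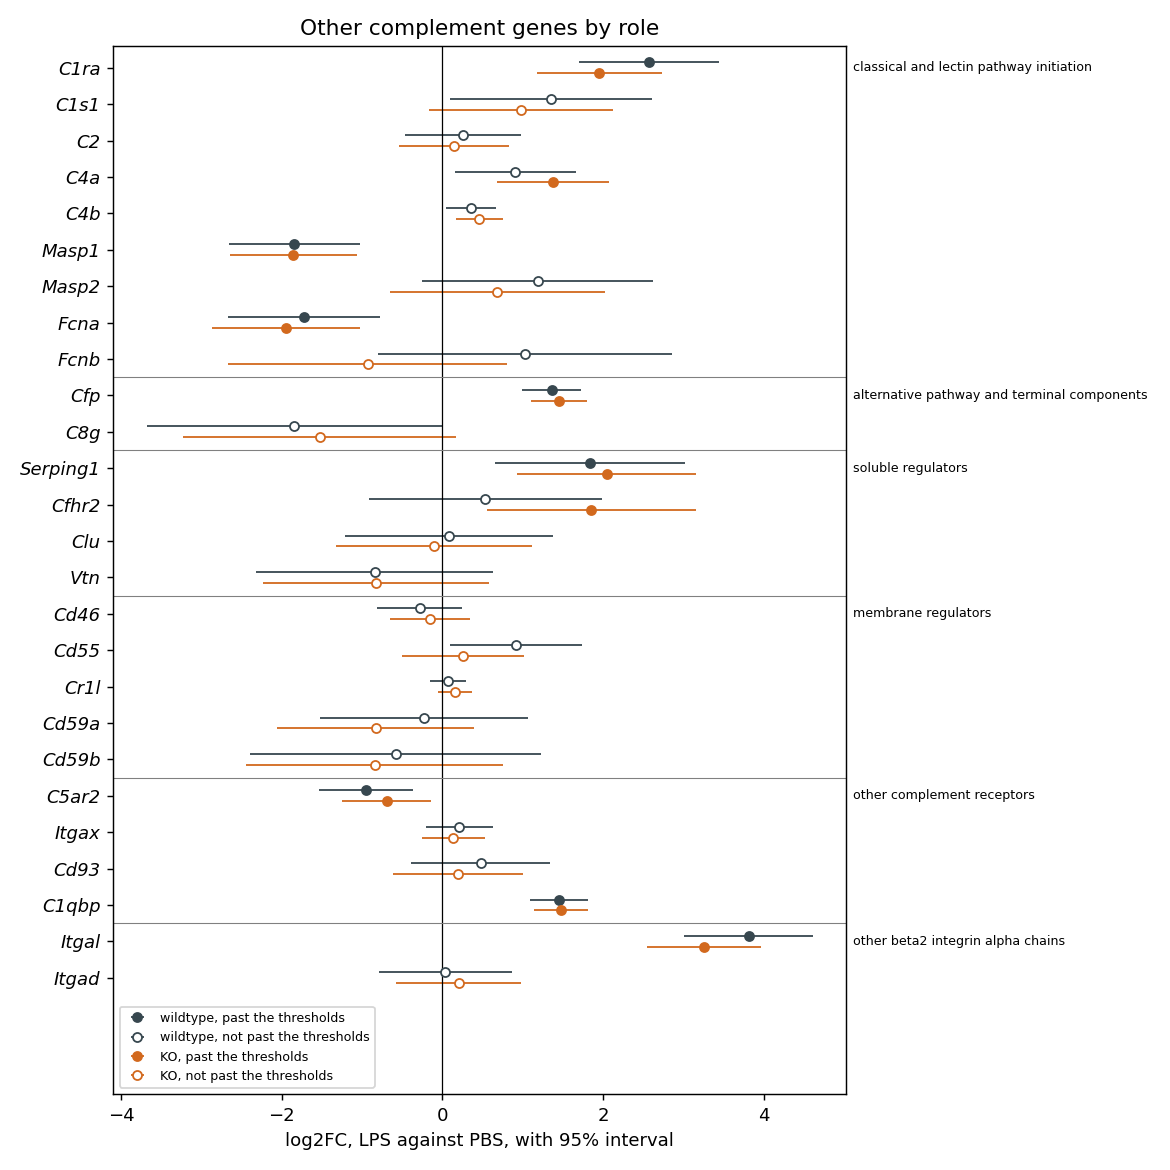
The log2FC of LPS against baseline with its 95% interval for the further complement genes described in the text, grouped by role, in wildtype and KO mice, with filled points past the thresholds. *Itgal* lies farthest to the right (3.81 in wildtype, 3.25 in KO mice), and the same 8 genes have filled points in both genotypes, with *C4a* and *Cfhr2* filled in KO mice in addition.

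For KO against wildtype mice 0 of the 27 genes passed in either condition by edgeR's quasi-likelihood test, nor in the interaction. Of all genes 1.31% passed after LPS and 0.8% at baseline, so a count of 0 says little about the list. At an unadjusted p below 0.05, which 2.57% and 1.04% of all genes reached, there was 1, *Cfp* at baseline (log2FC −0.37, under the fold threshold), and by DESeq2 1 gene passed at baseline. That gene, *Colec11*, was left out by the filter and had 10, 1, 0 and 3 counts in wildtype and 0 in all KO libraries at baseline.

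The genes whose pattern over the 19 libraries was most like that of each complement gene were found by the root mean square difference of log2 CPM after centring each gene on its mean. For *C1qc* these were *Cd81* (0.103), *Lag3* (0.119) and *Csf1r* (0.124), for *C1qa* *Arl8b* (0.127), *Letmd1* (0.130) and *Arpc4* (0.133), and for *C1qb* *Lrrc57* (0.131), *Arf1* (0.134) and *Snx17* (0.135). *C1qa* and *C1qb* differed from each other by 0.153, and *C1qb* and *C1qc* by 0.328. For *C5ar1* they were *Gcnt2* (0.182), *Tgm2* (0.245) and *Tubb6* (0.246), and for *C3ar1* *Fcer1g* (0.138), *Capza2* (0.148) and *Pign* (0.156). For *C3* they were *Zbp1* (0.441), *Fpr1* (0.476) and *Bst1* (0.495), and for *Cfb* *Il2ra* (0.589), *Tgtp2* (0.594) and *Cd38* (0.599). For *Itgb2* they were *Clic1* (0.0931), *Gpr89* (0.0981) and *Rassf5* (0.101), and for *Itgam* *Itpripl2* (0.129), *Bmi1* (0.140) and *Fez2* (0.147). These distances are descriptions over libraries that share treatment and depth. They are not scaled to a gene's own range, so their sizes cannot be compared between genes that changed much and genes that changed little.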

How the data were processed

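RNA was measured in CD11b+ brain cells of 19 mice. According to the labels and the study's methods, a stranded kit for total RNA with removal of ribosomal RNA was used, and the authors trimmed reads with cutadapt before mapping and counting with STAR 2.7.9a (GRCm39). The deposited values are raw counts per Ensembl gene and mouse, not normalized. Whether the counting used strand is not given in the sources used here.

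The fits were made with edgeR 4.0.16 under R 4.3.3. Genes passed filterByExpr (minimum count 10, minimum total count 15), libraries were normalized with TMM, and all 19 entered 1 quasi-likelihood fit with 4 groups. Adjustment followed Benjamini and Hochberg over the 18739 genes tested. Intervals are 95% intervals from the SE, and p-values measure the spread between these mice. Calls needed a log2FC of 0.5 or more in size, with an adjusted p below 0.05 for LPS against baseline and an unadjusted one below 0.05 for KO against wildtype. The interaction needed an adjusted p below 0.05 at any fold. No pair of libraries within a group agreed within sampling noise (lowest chi-square per degree of freedom 6.50). Log2 CPM used a prior count of 2.

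The 9 genes, the wider complement list by role and the marker lists of microglia and other cells were chosen with earlier results of these data known. The text names all 9 genes, the wider genes that passed the filter apart from results not reported here, and for each of the 9 the 3 genes of most similar pattern. Names, coordinates, exon and coding lengths came from GENCODE M39 on GRCm39, the build of the files, which named 56236 of the 56980 genes and 116 of 117 listed symbols. The scripts were tested on simulated counts. Alternatives were other normalizations and filters, DESeq2 1.42.0, fits of the groups compared only, a replicate block, other thresholds, ribosomal RNA and mitochondrial genes left out, and each library left out. The 4 libraries richest in oligodendrocyte markers were left out after seeing the data.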

Additional observations from a re-analysis of the deposited data

Results flagged for a closer look

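Of 56 groups of values examined, 2 held a mouse apart from the others, where chance alone gives about 1 in 20. KO baseline replicate 1 had 0.246 CPM of *Cfb* (4 counts), while the other 4 KO mice at baseline had 0. *C1qc* made up 33.1% of the C1q counts in KO baseline replicate 2, against 35.3 to 36.2% in the other 4 KO mice at baseline, which is still above the highest share after LPS (29.3%). Leaving out replicate 2 of the KO mice at baseline moved no call of the 9 complement genes.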

How the results depend on the processing

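Of 434 values of the 9 complement genes under alternatives that kept the libraries or left out several, 432 stayed on the same side of the thresholds, as did 847 of 855 with 1 library left out, and 0 reversed a call. The 10 others were all *C1qc* in LPS against baseline. With library totals in place of TMM, which moved the median log2FC of all genes in KO mice from −0.01 to −0.12, *C1qc* passed in KO mice (−0.55, adjusted p = 0.00469). Without the 4 libraries richest in oligodendrocyte markers it missed in wildtype mice (−0.61, adjusted p = 0.0539). The cause of these shifts was not tested.

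For KO against wildtype the wider list gave 1 call at baseline with DESeq2 and 1 without the low-count filter (*Colec11* both times, −4.39 and −4.87), against 0. After LPS it gave 1 without the oligodendrocyte-rich libraries (*Cfhr2*) and 0 to 2 with 1 library left out (*Cfhr2*, *Masp1*, *C1ra* or *Itgal*). Over all genes the 245 calls after LPS and 150 at baseline became 471 and 332 with DESeq2, 854 and 680 without the filter, 111 and 58 with at least 10 counts in every library, and 2 and 1 with adjusted p-values. After LPS they became 105 with the 2 groups only, and at baseline 234 with the replicate block. With 1 library left out they ranged from 223 to 434 after LPS, the highest without KO LPS replicate 5, and no other single library moved an all-gene count by over 1.5 times.

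Same-numbered mice are different animals and did not deviate together in every pair. For LPS against baseline their mean correlation was 0.33 in wildtype mice (−0.04 to 0.58) and 0.25 in KO mice (0.03 to 0.54). For KO against wildtype it was −0.10 after LPS and −0.01 at baseline. The replicate block left 5 and 4 of the 9 genes called after LPS and 10 and 11 of the wider list, with *Cd55* in wildtype mice added (0.96, adjusted p = 0.033). *Cfb*, at 31 counts or less, is limited by depth.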

Other observations

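The other marker lists moved as follows after LPS. Of 6 border macrophage markers 4 fell in each genotype, from 402 to 509 CPM summed to 217 to 434 CPM in wildtype and from 380 to 496 to 213 to 373 CPM in KO mice. Of 6 endothelial and mural markers 2 fell in each genotype. Of 6 astrocyte markers 1 rose in each, and the same count held for neuron markers. None of 6 oligodendrocyte and 4 choroid plexus markers passed the thresholds by edgeR's quasi-likelihood test. T and NK cell markers reached 8.19 CPM summed at most, and 1 of the 2 tested rose in each genotype.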
